A study of Mus musculus with 2 samples.

Results

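The genes described here are 10 genes of the insulin-like growth factor (IGF) system, chosen as a list of symbols out of 55536 genes in the deposited gene tables: the ligand Igf1, the receptors Igf1r and Insr, the receptor substrates Irs1 and Irs2, and the binding proteins Igfbp2, Igfbp3, Igfbp4, Igfbp5 and Igfbp6. They were measured by total RNA sequencing in the left cerebral cortex of female B6CASTF1/J mice aged 14 days, the first-generation offspring of C57BL/6J and CAST/EiJ parents, without any treatment named in the labels. The series holds 2 libraries, replicate 2 and replicate 1, which form 1 group, so the data give levels and the difference between these libraries and no comparison of conditions. Each library was made from 300 ng of RNA depleted of ribosomal RNA, with synthetic ERCC spike-in transcripts added. In the labels the libraries are biological replicates, each from its own tissue sample, and share 1 donor entry. Both descriptions speak of 3 females, but the tissue label does so for replicate 1 only, and the labels do not say if mice were pooled.

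IGF1 is a secreted growth factor that binds the receptor tyrosine kinase encoded by Igf1r, and the related insulin receptor is encoded by Insr. Activated receptors phosphorylate the docking proteins IRS1 and IRS2, which recruit phosphoinositide 3-kinase and so feed the AKT, mTOR and FOXO branches. The IGF binding proteins are secreted carriers that hold IGFs outside the cell and can restrain or prolong their action. In the postnatal brain the system is known for roles in growth, survival and myelination.

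All 10 genes were present at 1 TPM (transcripts per 1000000 transcripts) or more in both libraries. TPM divides reads by transcript length and is the only scale used here to compare genes. The 3 leading carriers stood above the ligand gene Igf1. Igfbp4, Igfbp2 and Igfbp5 averaged 51.1 ± 6.26, 43.0 ± 7.67 and 36.3 ± 1.71 TPM (SD, n = 2), while Igf1 averaged 7.52 ± 1.07 TPM (SD, n = 2). The 5 binding proteins summed to 146 TPM in replicate 2 and 144 TPM in replicate 1. These sums were 17.6 and 21.2 times the Igf1 level of the same library, and 14.6 and 19.5 times in the second transcript table. In the gene table the sums include Igfbp4 transcripts without a coding sequence, at 25.8 and 27.4 TPM. Igf2, a ligand gene outside these 10, had 84.9 and 70.9 TPM.

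**Figure D1:**
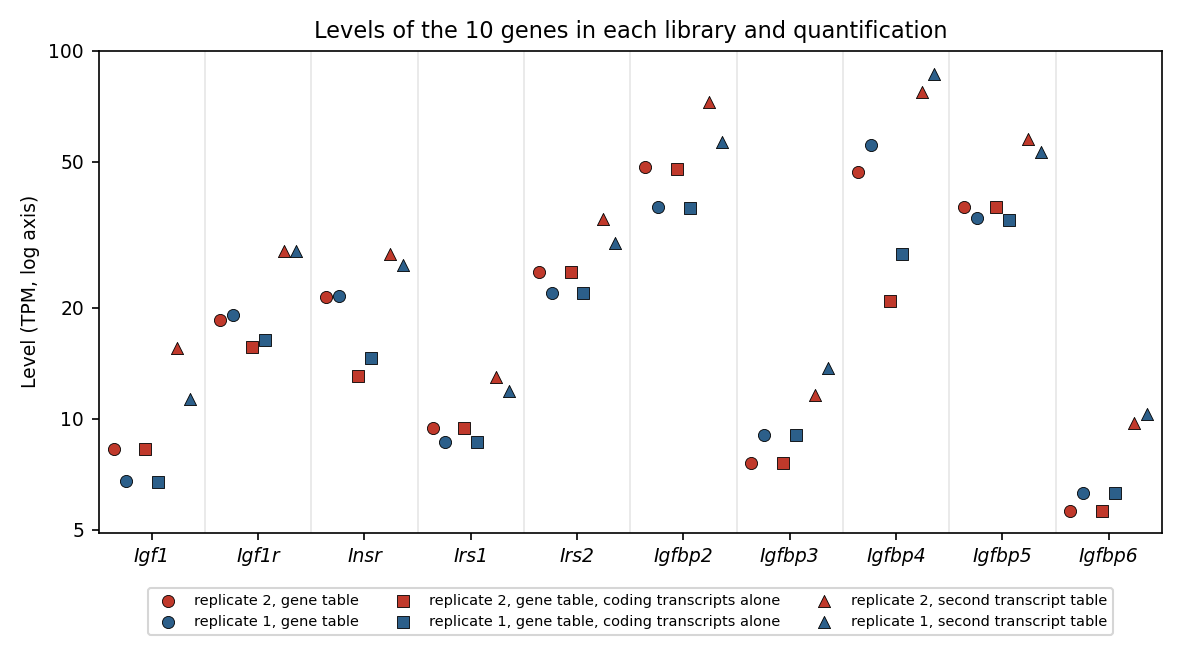
Level of each of the 10 genes in TPM on a log axis, with replicate 2 in red left of replicate 1 in blue. Circles are the gene table, squares its protein-coding transcripts alone and triangles the second transcript table. Igfbp4 had 46.7 and 55.6 TPM in the gene table but 20.9 and 28.1 TPM when only its coding transcripts were counted, whereas circles and squares nearly coincide for Igfbp2 and Igfbp5.

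The libraries held 32013997 gene counts in replicate 2 and 33362704 in replicate 1, and spike-ins took 0.361% and 0.359%. Markers of excitatory neurons were present, with Slc17a7, a vesicular glutamate transporter, at 743 and 771 TPM. Marker lists of neighbouring tissue and of other cells differed between the libraries. All 6 choroid plexus markers were called higher in replicate 2, with a summed level of 138 TPM in replicate 2 and 12.4 TPM in replicate 1, most of it Ttr. All 6 markers of myelinating oligodendrocytes were called lower in replicate 2, with 1255 and 2245 TPM, and all 5 striatal markers likewise, with 127 and 209 TPM. All 5 blood markers were called higher, with 1264 and 846 TPM, and 5 of 6 excitatory neuron markers lower, with 3023 and 3243 TPM. Of 4 hippocampal markers 2 were called higher and 0 lower. These counts were the same when libraries were scaled by total counts or spike-ins. These marker differences stand beside every difference between the libraries given here. In bulk tissue fewer cells of a type and less RNA per cell cannot be told apart.

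Differences between the libraries were tested gene by gene on counts (two-sided exact binomial test), adjusted by the Benjamini-Hochberg method over 18887 genes and called under 0.05. This test takes counting error alone, and its p-values concern these 2 libraries and not mice in general. It called 20.3% of all tested genes, 8.88% higher and 11.4% lower in replicate 2, that is 1678 and 2153 genes. Scaled by total counts these were 2733 and 1145 genes, and scaled by spike-ins 2570 and 1229, so the direction of small differences rests on the scaling. Of the 10 genes it called 6, with Igf1, Irs2 and Igfbp2 higher and Igf1r, Igfbp3 and Igfbp4 lower in replicate 2. Insr, Irs1, Igfbp5 and Igfbp6 were not called. With either of the other scalings 4 were called higher and 2 lower, as Igfbp5 gained and Igf1r lost its call. None of the 10 was called with a difference of 1.5-fold or more, a limit passed by 3.26% of tested genes, 2.20% higher and 1.05% lower. The median absolute log2 ratio was 0.16 over the 10 genes and 0.12 over all tested genes. The median signed log2 ratio, replicate 2 over replicate 1, was -0.03 over the 10 genes and 0.001 over all. When a spread between libraries was assumed in place of counting error alone (an edgeR exact test with a dispersion of 0.01), 0 of the 10 genes were called, and 0 had an unadjusted p under 0.05. At that setting 182 of the 18887 tested genes were called and 1020 had an unadjusted p under 0.05, so few calls among 10 genes are no feature of these genes.

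**Figure D2:**
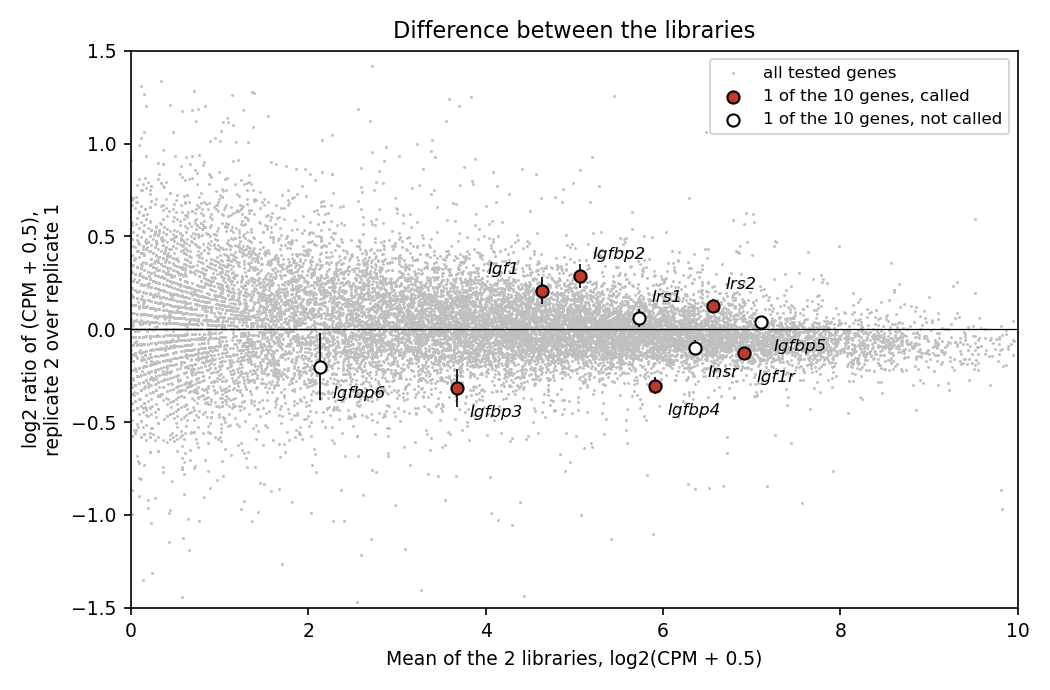
Log2 ratio of CPM (counts per 1000000 gene counts) plus 0.5, replicate 2 over replicate 1, against the mean level, log2(CPM + 0.5), for the tested genes in grey and the 10 genes in red (called) or white (not called). Bars are counting standard errors, and genes beyond the axis limits are not drawn. The 10 genes lie between -0.32 for Igfbp3 and 0.29 for Igfbp2, inside the grey cloud.

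Igf1 (ENSMUSG00000020053.18, chr10:87858265-87937042, plus strand, mm10) encodes the ligand. It had 8.28 TPM in replicate 2 and 6.76 TPM in replicate 1, from 854 and 738 counts. It stood above 28.7% of the 12959 protein-coding genes that reached 1 TPM in each library. The log2 ratio was 0.21 ± 0.07 (counting SE), 1.15-fold higher in replicate 2, with an adjusted exact binomial p of 0.0220.

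The Igf1 gene makes precursors that differ at both ends, and all 8 annotated transcripts are protein-coding. Leader segments written by alternative first coding exons are followed by the same sequence, and the 3′ coding end differs by the use of a 52-base exon that shifts the reading frame, because 52 is not a multiple of 3. In rodents the transcripts without this exon are known as the Ea form and those with it as the Eb form. The sequences show the segments on which these values turn. Capitals mark the alternative coding segment (chr10:87859350-87859412 for 63 bases and chr10:87861371-87861385 for 15 bases) or the 52-base exon (chr10:87915298-87915349), and lower case marks the neighbouring exon sequence.
Igf1-202, first coding segment: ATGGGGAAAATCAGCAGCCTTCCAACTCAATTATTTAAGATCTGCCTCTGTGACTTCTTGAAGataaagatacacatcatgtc
Igf1-204, first coding segment: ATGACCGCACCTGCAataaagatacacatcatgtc
Igf1-203: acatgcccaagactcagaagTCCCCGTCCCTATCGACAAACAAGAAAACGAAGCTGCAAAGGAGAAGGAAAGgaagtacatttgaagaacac
Igf1-202: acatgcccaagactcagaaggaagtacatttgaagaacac

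Nearly all Igf1 counts belonged to the long transcript Igf1-202. This transcript has 7052 nucleotides, of which 6311 are 3′ untranslated, and it lacks the 52-base exon. It took 810 and 670 counts in replicate 2 and replicate 1, which were 94.9% and 90.8% of the gene's counts. Because TPM weighs short transcripts up, its share of the gene's TPM was lower, at 68.5% and 66.5%. In the second transcript table, which was quantified from the reads, that share was 51.9% and 58.1%, and the short transcript Igf1-205 (798 nucleotides) took 36.4% and 33.3%.

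Transcripts starting with the 63-base coding segment held 821 and 716 counts in replicate 2 and replicate 1, or 96.1% and 97.0% of the gene's counts. Those with the 15-base segment held 33 and 22 counts. On the TPM scale the 15-base group took 27.3% and 13.3%, and 46.2% and 41.9% in the second table, so the size of its share rests on few counts from short transcripts. The 52-base exon itself was in transcripts with 23 and 46 counts, 19.6% and 20.1% of TPM. Those counts fell on different transcripts in each library, with Igf1-206 at 16 and 0 counts and Igf1-203 at 7 and 46 counts. The second table gave 5 and 0 counts to transcripts with this exon.

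**Figure D3:**
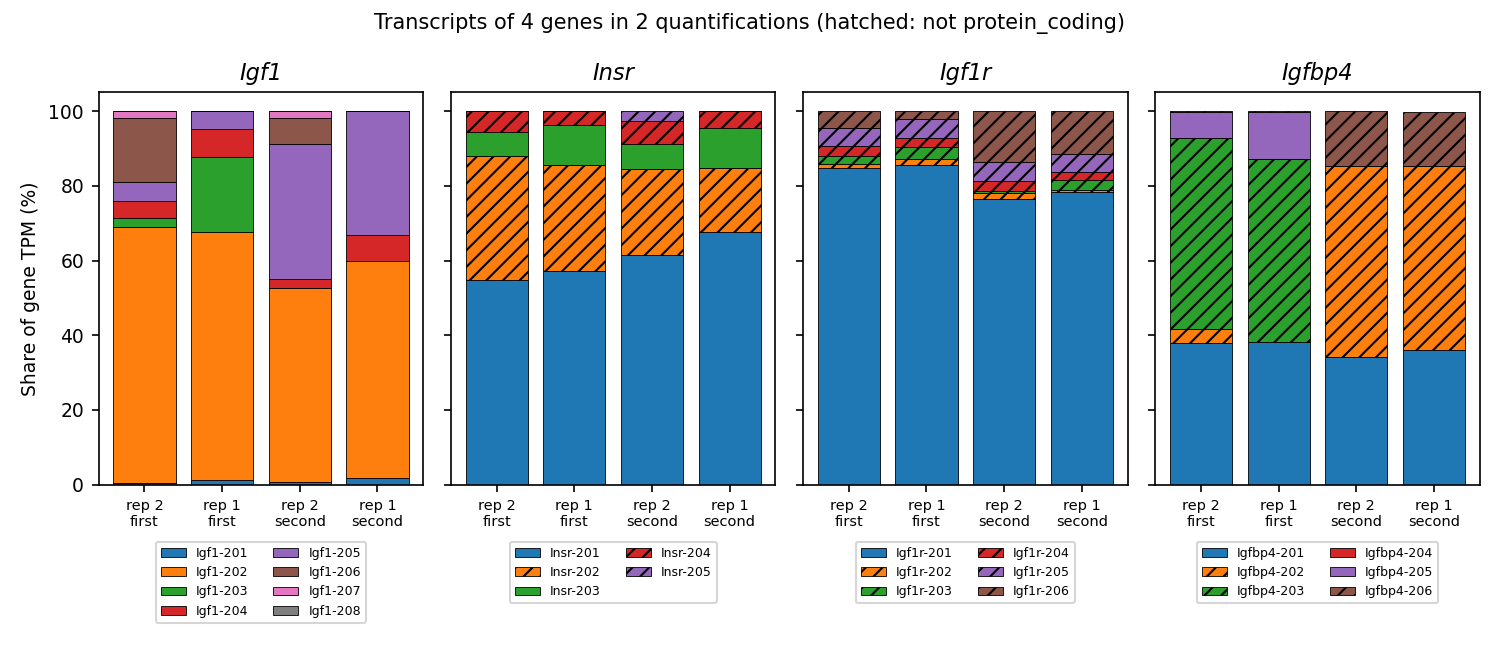
Share of each gene's TPM taken by its annotated transcripts for Igf1, Insr, Igf1r and Igfbp4, with replicate 2 left of replicate 1, first in the transcript table from the alignment (first) and then in the table from the reads (second). Hatched parts are transcripts not annotated as protein-coding. Igfbp4-203 takes 51.0% and 49.0% in the first table and 0 in the second, where Igfbp4-202 takes 51.1% and 49.2%.

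Igf1r (ENSMUSG00000005533.10, chr7:67952827-68233668, plus strand) encodes the IGF1 receptor. It had 18.5 TPM in replicate 2 and 19.1 TPM in replicate 1, from 3733 and 4087 counts. The libraries lay close together, with a mean of 18.8 ± 0.474 TPM (SD, n = 2). The log2 ratio of -0.13 ± 0.03 was called (adjusted exact binomial p = 0.000777), but not when libraries were scaled by total counts or by spike-ins, where the ratio was -0.07 and -0.08 with adjusted exact binomial p of 0.112 and 0.0763.

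Insr (ENSMUSG00000005534.10, chr8:3122061-3279617, minus strand) encodes the insulin receptor. It had 21.4 TPM in replicate 2 and 21.6 TPM in replicate 1, from 2574 and 2759 counts. The log2 ratio was -0.10 ± 0.04 and was not called (adjusted exact binomial p = 0.0575).

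Which receptor gene had the higher level depended on the transcripts counted. In the gene table Igf1r was below Insr in both libraries, with a log2 ratio of Igf1r over Insr of -0.21 in replicate 2 and -0.18 in replicate 1. In the second table the ratio was 0.02 and 0.13. With coding transcripts alone, an alternative chosen after seeing the data, it was 0.26 and 0.16, from 15.7 and 16.4 TPM of Igf1r and 13.1 and 14.6 TPM of Insr. Transcripts annotated as retained introns made up part of both levels, and whether introns were in fact retained was not tested. Insr-202, a retained-intron transcript of 1675 nucleotides, took 33.3% and 28.6% of Insr TPM on 9.0% and 7.6% of its counts. The 5 retained-intron transcripts of Igf1r took 15.3% and 14.5% of TPM on 97 and 113 counts. In the second table the retained-intron transcripts together took 29.4% and 21.8% of Insr TPM and 23.6% and 21.6% of Igf1r TPM. These shares were close in replicate 1.

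The full-length coding transcripts carried most counts of both receptors. Igf1r-201, with 11409 nucleotides in 21 exons and 7270 of them 3′ untranslated, held 97.4% and 97.2% of the Igf1r counts in replicate 2 and replicate 1. Its share of TPM was 84.7% and 85.5%, and 76.4% and 78.4% in the second table, where the retained-intron transcript Igf1r-206 took 12.5% on average. Insr-201, with 9355 nucleotides, held 2231 and 2452 counts and 54.8% and 57.1% of TPM, or 61.4% and 67.7% in the second table.

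The insulin receptor is known in 2 isoforms that differ by a 36-base exon in the extracellular part, which adds 12 codons. The form without the exon, IR-A, is known to predominate in neurons, and the form with it, IR-B, in liver. The 2 annotated junctions are shown because the deposited values tell them apart only weakly. Capitals mark the exon (chr8:3181702-3181737, minus strand), and lower case the exon bases on either side.
Insr-203: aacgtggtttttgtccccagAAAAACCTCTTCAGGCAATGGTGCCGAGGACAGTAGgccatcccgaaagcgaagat
Insr-201: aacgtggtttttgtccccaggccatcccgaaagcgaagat

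The exon-containing Insr-203 is annotated as a fragment of 672 nucleotides. It had 16 counts in replicate 2 and 28 in replicate 1, against the 2231 and 2452 of Insr-201, which lacks the exon. In TPM that was 1.36 and 2.27, or 6.35% and 10.5% of the gene, and the second table gave 1.87 and 2.75 TPM from 10 and 16 counts. A retained-intron transcript that runs across the exon, Insr-204, held 96 and 70 counts. No full-length transcript with the exon is annotated, so the share of the IR-B form could not be read from these tables.

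Irs2 (ENSMUSG00000038894.7, chr8:10984681-11008458, minus strand) and Irs1 (ENSMUSG00000055980.2, chr1:82233101-82291416, minus strand) encode the docking proteins below the receptors, and each has 1 annotated transcript of 2 exons. Irs2 had 25.1 TPM in replicate 2 and 22.0 TPM in replicate 1, from 3205 and 2940 counts. Irs1 had 9.41 and 8.65 TPM, from 1749 and 1679 counts. Irs2 stood above Irs1 in both libraries and every quantification. The log2 ratio of Irs2 over Irs1 was 1.40 in replicate 2 and 1.34 in replicate 1, a mean of 2.59-fold, and the second table gave 1.42 and 1.33. With a single transcript each, this ratio does not depend on how reads were divided among transcripts.

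Between the libraries Irs2 was called higher in replicate 2, with a log2 ratio of 0.12 ± 0.04 (adjusted exact binomial p = 0.00527). Irs1 was not called, with 0.06 ± 0.05 (adjusted exact binomial p = 0.448). A non-coding gene on the opposite strand, 9530052E02Rik, overlaps 609 bases of Irs2 and had 9 and 7 counts in replicate 2 and replicate 1. Opposite-strand genes over Igf1, Insr and Irs1 were listed at 0 counts in both libraries. How strand was handled in counting is not known from the labels or headers.

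Igfbp2 (ENSMUSG00000039323.18, chr1:72824503-72852474, plus strand) encodes a carrier that binds IGF2 well and is known from choroid plexus, meninges and glia. It had 48.4 TPM in replicate 2 and 37.5 TPM in replicate 1, from 1189 and 972 counts. Its SD of 7.67 TPM was the largest among the 10 genes. The log2 ratio was 0.29 ± 0.06, 1.22-fold higher in replicate 2 (adjusted exact binomial p = 4.46e-05). The ratio lay between 0.27 and 0.34 under the alternatives that take counting error alone. Igfbp2 was higher in the library with the higher choroid plexus, blood and fibroblast markers. The choroid plexus markers were higher in replicate 2 for 6 of 6, with none at 0 in either library. Some of them rested on few counts. The defining Folr1 had 2.69 and 0.400 TPM from 34 and 4 counts, and Otx2 had 20 and 4 counts. Of 6 meningeal and perivascular fibroblast markers 3 were called higher in replicate 2 and none lower, with sums of 157 and 127 TPM, of which Igf2 gave 84.9 and 70.9 TPM. Of 6 astrocyte markers 2 were called higher and 3 lower. All 6 markers of myelinating oligodendrocytes and 3 of 4 markers of their precursors were called lower. Some of these counts rested on the scaling. Scaled by total counts or spike-ins, 4 fibroblast markers were called higher and 2 precursor markers lower. Astrocyte markers were then called 3 higher and 2 lower with total counts, and 3 and 3 with spike-ins. The part of these tissues and cells in the Igfbp2 difference was not tested.

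Igfbp5 (ENSMUSG00000026185.8, chr1:72857932-72874884, minus strand), a carrier that also binds extracellular matrix, lies 5457 bases from Igfbp2 on the other strand. It had 37.5 TPM in replicate 2 and 35.1 TPM in replicate 1, from 4556 and 4430 counts. Its log2 ratio was 0.04 ± 0.03 and was not called (adjusted exact binomial p = 0.383), although it was called higher when libraries were scaled by total counts or spike-ins (0.10 and 0.09, adjusted exact binomial p = 0.00786 and 0.0149). The neighbours thus had log2 ratios of 0.29 for Igfbp2 and 0.04 for Igfbp5, and the difference between these ratios was not tested.

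Igfbp4 (ENSMUSG00000017493.12, chr11:99041244-99054392, plus strand) encodes a carrier that is cleaved by the protease pappalysin. It had 46.7 TPM in replicate 2 and 55.6 TPM in replicate 1, from 1745 and 2160 counts. The log2 ratio was -0.30 ± 0.05, 1.23-fold lower in replicate 2 (adjusted exact binomial p = 1.14e-09), and lay between -0.34 and -0.25 under the alternatives that take counting error alone. Igfbp4 was lower in the library with lower myelin, striatal and excitatory neuron markers. Those were called lower for 6 of 6, 5 of 5 and 5 of 6, with none at 0. The myelin markers differed from 1.70-fold for Cnp to 2.00-fold for Mog, at 21.8 and 42.7 TPM in replicate 2 and replicate 1. The striatal markers differed from 1.25-fold for Drd1 to 2.27-fold for Drd2, at 3.06 and 7.04 TPM. The excitatory neuron markers differed less than Igfbp4, from 1.02-fold for Neurod6, which was not called, to 1.16-fold for Nrgn. The part of these cells and tissues in the Igfbp4 difference was not tested.

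Processed transcripts, which are annotated without a coding sequence, made up 55.2% of the Igfbp4 TPM in replicate 2 and 49.3% in replicate 1. The coding transcript Igfbp4-201 (3831 nucleotides) held 1357 and 1700 counts in replicate 2 and replicate 1, which were 77.7% and 78.7% of the gene's counts but 37.9% and 38.2% of its TPM. Most of the rest went to a short processed transcript, and the quantifications named different ones. The alignment-based table gave Igfbp4-203 (785 nucleotides) 336 and 401 counts, or 51.0% and 49.0% of TPM, and Igfbp4-202 (799 nucleotides) 26 and 0 counts. The second table gave Igfbp4-203 none and Igfbp4-202 294 and 339 counts, or 51.1% and 49.2% of TPM. It gave a further 14.8% and 14.6% to Igfbp4-206. Only 28 bases of Igfbp4-203 are in no other annotated transcript of the gene, and 147 bases of Igfbp4-202.

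The 3 transcripts join different first exons to the same second exon, and these first exons and junctions would help tell them apart. Igfbp4-201 also has 2988 bases that are in no other annotated transcript of the gene. Capitals mark the last 28 bases of each first exon (chr11:99041818-99041845, chr11:99044885-99044912 and chr11:99043597-99043624, plus strand), and lower case the shared second exon.
Igfbp4-201: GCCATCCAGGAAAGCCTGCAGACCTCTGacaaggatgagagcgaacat
Igfbp4-202: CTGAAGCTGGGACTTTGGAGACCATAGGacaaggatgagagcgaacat
Igfbp4-203: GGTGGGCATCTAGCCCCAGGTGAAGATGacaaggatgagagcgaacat

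With coding transcripts alone Igfbp4 had 20.9 TPM in replicate 2 and 28.1 TPM in replicate 1, 48.0% of its gene level. The log2 ratio of Igfbp4 over Igfbp2 was -0.05 and 0.56 in the gene table, 0.09 and 0.61 in the second table and -1.19 and -0.41 with coding transcripts alone. The log2 ratio of Igfbp5 over Igfbp4 was likewise -0.31 and -0.66 in the gene table but 0.84 and 0.30 with coding transcripts alone. Igfbp4 was thus first among the 10 genes only where its processed transcripts were counted. The other binding proteins did not share this feature, with 96.4% and 99.6% of Igfbp2 TPM, 94.9% and 98.1% of Igfbp3 TPM and 100% and 98.4% of Igfbp5 TPM on 1 coding transcript each.

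Igfbp3 (ENSMUSG00000020427.11, chr11:7206086-7213923, minus strand) encodes the main IGF carrier of the circulation. It had 7.58 TPM in replicate 2 and 9.04 TPM in replicate 1, from 356 and 448 counts. The log2 ratio of -0.32 ± 0.10 was called, 1.25-fold lower in replicate 2 (adjusted exact binomial p = 0.00945). The ratio lay between -0.36 and -0.26 under the alternatives that take counting error alone. Igfbp2 stood 5.10-fold above Igfbp3 on average, with log2 ratios of 2.66 and 2.04.

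Igfbp6 (ENSMUSG00000023046.6, chr15:102144362-102149511, plus strand) encodes a carrier that prefers IGF2. It was the lowest of the 10 genes, with 5.62 TPM in replicate 2 and 6.30 TPM in replicate 1, from 117 and 137 counts. Its log2 ratio of -0.20 ± 0.18 was not called (adjusted exact binomial p = 0.457). Igfbp3 stood above Igfbp6 in both libraries, with log2 ratios of 0.43 and 0.51.

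From the highest level to the lowest in the gene table, the order was Igfbp4, Igfbp2, Igfbp5, Irs2, Insr, Igf1r, Irs1, Igfbp3, Igf1 and Igfbp6. Neighbours were taken to differ only where both libraries of one lay above both of the other. By that rule Igfbp4 and Igfbp2 were not separated, nor were Irs1 and Igfbp3, nor Igfbp3 and Igf1. Igfbp4 stood above 82.4% of the detected protein-coding genes and Igfbp6 above 23.7%. The second table gave higher TPM for all 10 genes, between 1.26 times the gene table for Insr and 1.79 times for Igf1. With it Igf1r averaged above Insr, and Igf1 above Igfbp3 and Irs1. By the same rule it separated Igfbp4 from Igfbp2, but not Igfbp2 from Igfbp5, Igf1 from Igfbp3 or Igfbp3 from Irs1. The shares of the carriers in their summed TPM were not tested, and they include the Igfbp4 transcripts without a coding sequence. Igfbp2 made up 33.2% of the summed binding protein TPM in replicate 2 and 26.2% in replicate 1, and Igfbp4 made up 32.0% and 38.7%. Igfbp5 held 25.7% and 24.5%, Igfbp3 5.20% and 6.30%, and Igfbp6 3.85% and 4.39%.

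The genes around these 10 were read from lists of 67 further IGF and insulin pathway genes in 11 role groups. Of the 62 tested, 7 were called higher and 15 lower in replicate 2, which is 35.5% beside the 20.3% of all tested genes, and 40 were not called. Their median log2 ratio was -0.03. The direction rested on the scaling, as 11 were called higher and 8 lower with total counts, with a median of 0.03, and 10 and 8 with spike-ins. Among the other ligands Igf2 was the main one, with 84.9 TPM in replicate 2 and 70.9 TPM in replicate 1, while both insulin genes, Ins1 and Ins2, were listed at 0. Igf2 was called higher in replicate 2, with a log2 ratio of 0.35 ± 0.04 (adjusted exact binomial p = 1.87e-21), and it is itself one of the fibroblast markers. Igf2 thus stood above Igf1 in both libraries.

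Among the other receptors Igf2r, which clears IGF2 to lysosomes, had 12.2 and 11.6 TPM, and the insulin receptor-related Insrr 0.27 and 0.50 TPM. Among the other carriers Igfbp7 led with 31.5 and 30.5 TPM and a log2 ratio of -0.01. Igfbp1 was listed at 0, and Igfals, the subunit of the circulating complex, had 2 and 2 counts. Of the proteases and inhibitors that act on binding proteins, the serine protease gene Htra1 led with 105 and 124 TPM and was called lower, with a log2 ratio of -0.29 ± 0.03 (adjusted exact binomial p = 7.76e-20). Pappa, the Igfbp4 protease, was low at 0.220 and 0.110 TPM. Its log2 ratio of 0.63 ± 0.35, from 49 and 26 counts, was called (adjusted exact binomial p = 0.0411), but not with DESeq2 size factors (adjusted exact binomial p = 0.0524) or in the second table (adjusted exact binomial p = 0.0557). Stc2, a pappalysin inhibitor, had 0.570 and 0.730 TPM.

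Of 8 tested adaptors 1 was called higher and 2 lower, and 2 and 0 with total counts or spike-ins. Grb2 was the most abundant, at 89.9 and 86.3 TPM. On counts, 3691 and 3921, it was nevertheless called lower in replicate 2, with a log2 ratio of -0.09 ± 0.03 (adjusted exact binomial p = 0.0468). It was not called with total counts or spike-ins. Irs4 was low, at 0.820 and 0.260 TPM, and was called higher in replicate 2, with a log2 ratio of 1.27 ± 0.28 from 105 and 34 counts (adjusted exact binomial p = 2.16e-08). Irs4 and Pappa were the 2 pathway genes called at 1.5-fold or more, and Irs3 had 6 and 1 counts. No growth hormone input gene was called, 0 of 4, with Jak2 leading at 11.4 and 11.3 TPM.

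Among the intracellular arms, in the FOXO and GSK3 group 4 of 6 genes were called lower in replicate 2 and none higher, with Gsk3b leading at 97.7 and 103 TPM. With total counts 4 were called lower and 1 higher, and with spike-ins 4 and 0. Gsk3b was not called with the trend on length and level removed (log2 ratio -0.02, adjusted exact binomial p = 0.535). In the mTOR arm 3 of 9 were called higher and 1 lower, with Rheb leading at 61.4 and 57.2 TPM, and 4 and 0 under either other scaling. In the MAPK arm 1 of 7 was called higher and 1 lower, and 2 and 0 under either other scaling. Of 7 negative regulators 1 was called, Ptpn11, a phosphatase gene that can also promote MAPK signalling, which was the most abundant at 40.2 and 40.4 TPM and was lower in replicate 2, while Socs1 and Trib3 were under 1 TPM in both. The group medians ran from -0.14 for FOXO and GSK3 to 0.35 for the ligands, where only Igf2 was tested.

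**Figure D4:**
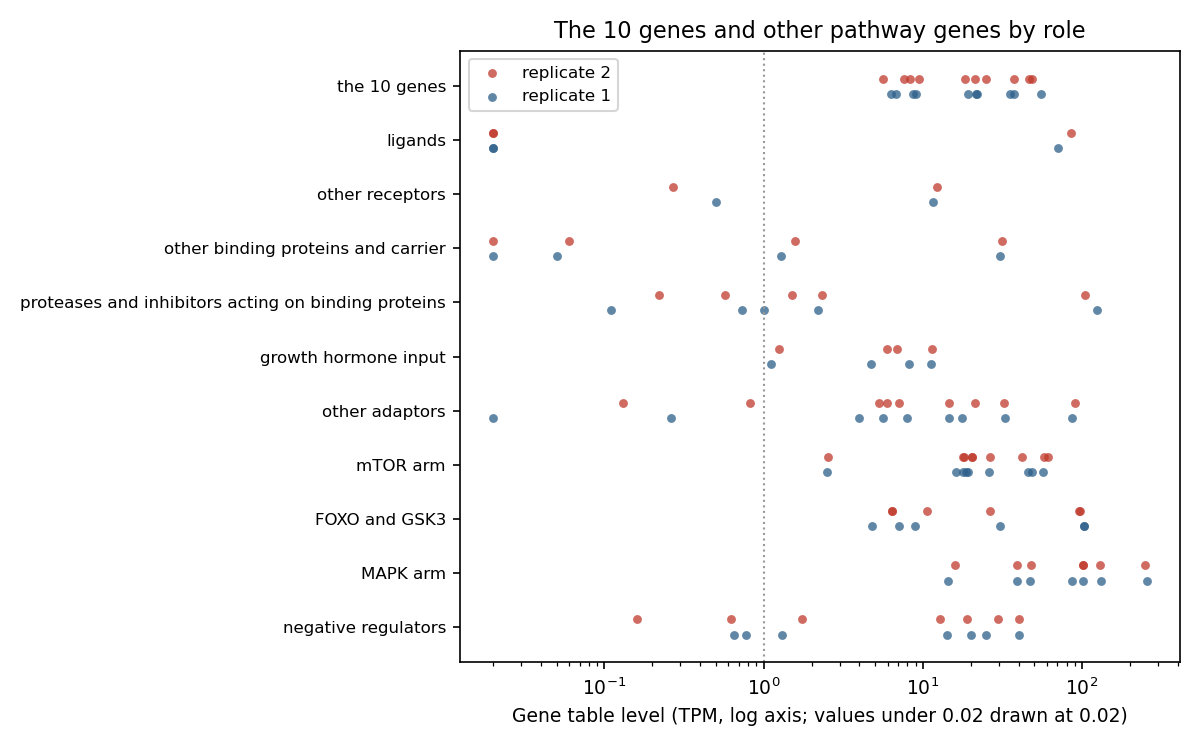
Level in TPM (log axis, values under 0.02 drawn at 0.02) of the 10 genes in the top row and of other pathway genes by role below, with replicate 2 in red above replicate 1 in blue. The dotted line marks 1 TPM. All of the 10 genes lie right of it in both libraries, while 11 other pathway genes lie left of it in both.

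The promoters of the 10 genes were described by their count of the dinucleotide CG, which reads the same on both strands, in the 300 bases around each start from RefSeq (GRCm38.p6). An entry was found for 9 of the genes, all but Insr. The counts were 48 in Igf1r, 41 in Irs2 and 28 in Irs1, beside a median of 7 over 32851 mouse promoters. Igf1 had 6, and 43.6% of promoters had fewer. The Igf1 window, chr10:87860861-87861160, does not hold the start of Igf1-202 at chr10:87859068. The count of 6 thus does not describe the start of the transcript with most Igf1 counts. Nor do the windows of Igf1r, Irs2 and Igfbp6 hold the annotated starts of Igf1r-201, Irs2-201 and Igfbp6-201. Those starts are at chr7:67952827, chr8:11008458 and chr15:102144362, so the counts for these genes carry the same limit. The binding proteins spanned the range, from 37 in Igfbp3 and 27 in Igfbp4 to 10 in Igfbp5 and 8 in Igfbp6, with 18 and 14 at the 2 starts of Igfbp2. Igfbp3, with 37, stood at a lower level than Igfbp5, with 10.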

How the data were processed

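Per the deposited text files, the authors quantified a gene table and a transcript table from reads aligned to the transcriptome, and another transcript table (called the second table here) directly from the reads, on mm10 with GENCODE M21. Their tools are not known from the labels or headers. Expected counts in the deposited tables are estimated reads without normalisation, per the file headers. TPM was scaled by the authors to 1000000 over all rows of a table. The authors also deposited each transcript's percent of its gene's TPM, per the file headers; shares here were computed from TPM and counts. A further 26248 rows that name no gene held 1.51e-05% of the counts of replicate 2 and 1.49e-05% of replicate 1 and were left out, as were spike-ins.

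All 55536 gene identifiers matched GENCODE M21. Expected counts were rounded, and library sizes were scaled with edgeR 4.0.16 (TMM), which gave replicate 2 an expected share of 0.500. A group of 2 libraries leaves no residual degrees of freedom for a quasi-likelihood test, so the 18887 genes reaching 10 counts in either library were tested with a two-sided exact binomial test (SciPy 1.17.1), adjusted by Benjamini-Hochberg. P-values and counting standard errors cover counting error only. Log2 ratios are of CPM + 0.5, and those between genes of TPM + 0.1, which understates differences of low genes. The test was checked on simulated data. Replicates were numbered as in the labels. No value was averaged over more than these 2 libraries.

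The genes, the pathway and marker lists and the tests were chosen with earlier results of these data known. Of the other pathway genes, those are named that were called at 1.5-fold or more, led their role group or were under 1 TPM in both libraries, and transcripts with 10% or more of the gene's TPM in both libraries of either quantification. Further genes named for their markers, transcripts named for an exon and genes quoted from the lists were chosen after their values were seen. Alternatives were other scalings (total counts, DESeq2 1.42.0 size factors, ERCC), count minimums, the second table, an assumed dispersion, removal of a trend on length and level, other added constants, rescaled TPM and coding transcripts alone. Transcript sequences are from GENCODE M21. Some pathway genes and 1 role group are not reported here. Alleles of the 2 parent strains were not analysed here.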

Additional observations from a re-analysis of the deposited data

How the results depend on the processing

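No alternative reversed the log2 ratio of any of the 10 genes between the libraries. Of the values per gene and alternative that enters the test, 76 stayed on their side of the threshold, 5 crossed to a call and 9 lost one, 6 of these under the assumed dispersion. With an edgeR exact test at an assumed dispersion of 0.01, 0 genes of the 10 were called higher and 0 lower (smallest unadjusted p 0.144, for Igfbp4), and 182 genes over the whole table, 100 higher and 82 lower. Over the whole table the calls were 2733 higher and 1145 lower with total counts and 2570 and 1229 with ERCC scaling. Of the pathway genes 11 were called higher and 8 lower with total counts, 8 lower with ERCC scaling and with the trend removed, and 1 higher and 0 lower (by the edgeR exact test) with the assumed dispersion. Igf1r also lost its call with the trend removed (log2 ratio -0.07, adjusted exact binomial p = 0.0987), where Igfbp5 gained one (0.10, adjusted exact binomial p = 0.0143). Insr was called lower with a minimum of 50 counts (adjusted exact binomial p = 0.0473) and with coding transcripts alone (-0.14, adjusted exact binomial p = 0.00610).

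In the second table mean levels were 13.5 TPM for Igf1, 28.6 for Igf1r, 27.1 for Insr, 12.4 for Irs1, 32.4 for Irs2, 64.6 for Igfbp2, 12.6 for Igfbp3, 81.9 for Igfbp4, 55.3 for Igfbp5 and 10 for Igfbp6. Rescaled to nuclear protein-coding genes, which held 48.8% of TPM in replicate 2 and 48.3% in replicate 1, they were 15.5, 38.7, 44.4, 18.6, 48.5, 88.5, 17.1, 105, 74.8 and 12.3 in the same order. Coding transcripts alone gave 16.0 TPM for Igf1r, 13.8 for Insr and 24.5 for Igfbp4.

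The mean log2 ratio of Igf1r over Insr turned to 0.07 in the second table and 0.21 with coding transcripts alone. With coding transcripts alone Igfbp5 over Igfbp4 turned to 0.57 and Igfbp4 over Igfbp2 to -0.80. Igfbp4 over Igfbp2 was -0.05 without replicate 1 and 0.56 without replicate 2. Irs2 over Irs1 was 1.29 with 1 TPM added, and Igfbp3 over Igfbp6 was 0.32 in the second table.

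Mean transcript shares of gene TPM in the second table were 55.0% for Igf1-202, 34.8% for Igf1-205, 77.4% for Igf1r-201, 12.5% for Igf1r-206, 64.6% for Insr-201, 20.2% for Insr-202, 93.7% for Igfbp2-201, 35.1% for Igfbp4-201, 50.1% for Igfbp4-202, 0 for Igfbp4-203, 14.7% for Igfbp4-206 and 92.2% for Igfbp5-201. No paired analysis was possible because the libraries form 1 group. Counts under about 50, as for exon-bearing Insr and Igf1 transcripts, limit shares to coarse values.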
